A study of Mus musculus with 11 samples.

Results

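The genes described here encode CD73 and FR4, surface proteins by which anergic T cells are recognised, and the enzymes, receptors and transporter that handle extracellular ATP and adenosine. They are Entpd1, Nt5e, Izumo1r, Adora2a, Ada, Dpp4, Slc29a1, P2rx7 and P2rx4. An ATAC-seq peak was counted as a member when its centre lay nearer to a RefSeq start site of 1 of these 9 genes than to that of any other gene. This gave 47 of 38509 consensus peaks, between 1 (Ada) and 8 (Adora2a) for each gene. Of the 47, 10 lay within 1 kb of a start site and 37 further away. Their centres fell in introns at 31 peaks, between genes at 10, in 3′ UTRs at 3, in coding exons at 2 and in a 5′ UTR at 1.

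ATAC-seq marks open chromatin with a transposase, and the signal is the number of sequenced reads at a peak, scaled for each library. The cells were CD4 T cells sorted fresh from mixed spleen and lymph node of untreated polyclonal C57BL/6 mice, wildtype apart from a Foxp3-GFP reporter that every group carried. Anergic cells (n = 3) were CD44high FOXP3– CD73high FR4high and NRP1+, Treg cells (n = 3) were FOXP3+ CD25+, Teff cells (n = 3) were CD44high FOXP3– CD73low FR4low, and naive cells (n = 2) were CD44low. Because CD73 and FR4 were gated, chromatin at Nt5e and Izumo1r is not independent of the sort in comparisons that involve anergic or Teff cells. The gates describe mixed polyclonal populations, and the age of the mice is not given in the sources used here.

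Extracellular ATP, released by damaged or activated cells, is a danger signal that opens the P2X channels of T cells. CD39 and CD73 act in turn at the cell surface: CD39 removes phosphates from ATP and ADP to give AMP, and CD73 converts AMP to adenosine. Adenosine acts on the A2A receptor, which raises cyclic AMP and restrains T cell activation, until adenosine deaminase inactivates it or the transporter ENT1 carries it into the cell. FR4 is a member of the folate receptor family found on mouse Treg and anergic CD4 T cells. It has no known place in this pathway and is described here because it is gated with CD73.

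Reads in peaks ranged from 14.7 to 68.8 M per library, and every member peak had at least 7 in every library. Signal is given in the deposited units, in which 1 read was worth 0.527 to 2.13 depending on the library. Pearson r of log2 signal was 0.973 to 0.986 between libraries of 1 group and 0.752 to 0.934 between groups. The labels were checked against defining genes. Signal summed over the peaks of Foxp3, Il2ra, Ikzf2 and Lrrc32 was 11195 to 11634 in anergic, 19745 to 21738 in Treg, 7676 to 8619 in Teff and 5085 to 5347 in naive libraries. At Foxp3 alone it was 96.1 to 184 in anergic, 1118 to 1597 in Treg, 14 to 63.3 in Teff and 7.74 to 15.4 in naive libraries. At Cd44 it was 6115 to 6912 in anergic, 3167 to 3852 in Treg, 3259 to 4449 in Teff and 1734 to 1879 in naive libraries. Over the T cell genes Cd4, Cd3e, Cd3g and Cd3d it was 11589 to 12189 in anergic, 8905 to 9548 in Treg, 10876 to 12326 in Teff and 14207 to 14274 in naive libraries, and Trac had no peak. Naive libraries had 293 and 368 peaks at 1 read, against 17 to 31 in the other libraries.

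The peaks on which the results turn are shown first for 4 genes. For each gene the peak with the smallest p over the 4 groups is called its leading peak. That choice used these values, so a large change at a leading peak is partly set by it. Each line below gives the 300 bases around the centre of a leading peak, read from the GRCm38 plus strand. They come from intron 1 of Nt5e (chr9:88332487-88332786), upstream of Izumo1r (chr9:14904748-14905047), intron 1 of P2rx7 (chr5:122645344-122645643) and intron 4 of P2rx4 (chr5:122718951-122719250). Capitals mark letters that matched 1 of 14 transcription factor motifs on either strand.
Nt5e: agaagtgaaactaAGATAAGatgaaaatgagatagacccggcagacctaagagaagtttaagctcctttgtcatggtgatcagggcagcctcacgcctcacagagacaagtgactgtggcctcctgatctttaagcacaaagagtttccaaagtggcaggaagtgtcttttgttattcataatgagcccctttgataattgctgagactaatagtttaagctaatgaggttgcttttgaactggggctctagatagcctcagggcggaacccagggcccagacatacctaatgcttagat
Izumo1r: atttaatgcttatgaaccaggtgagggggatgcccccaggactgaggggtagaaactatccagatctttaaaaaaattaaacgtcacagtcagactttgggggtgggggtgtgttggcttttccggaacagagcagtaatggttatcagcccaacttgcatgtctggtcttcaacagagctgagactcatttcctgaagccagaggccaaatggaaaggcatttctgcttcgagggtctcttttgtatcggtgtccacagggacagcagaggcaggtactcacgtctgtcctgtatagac
P2rx7: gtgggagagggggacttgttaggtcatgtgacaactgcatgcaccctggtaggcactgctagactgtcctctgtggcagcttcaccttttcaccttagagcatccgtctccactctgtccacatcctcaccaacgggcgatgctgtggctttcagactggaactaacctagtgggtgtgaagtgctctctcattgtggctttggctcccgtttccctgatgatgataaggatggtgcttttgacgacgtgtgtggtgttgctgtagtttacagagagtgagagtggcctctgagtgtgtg
P2rx4: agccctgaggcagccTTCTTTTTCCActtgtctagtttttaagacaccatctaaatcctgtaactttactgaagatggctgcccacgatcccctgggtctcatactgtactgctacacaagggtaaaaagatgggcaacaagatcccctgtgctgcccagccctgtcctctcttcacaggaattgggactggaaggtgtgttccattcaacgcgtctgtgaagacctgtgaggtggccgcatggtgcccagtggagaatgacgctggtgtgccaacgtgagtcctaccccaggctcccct
The Nt5e window held a GATA motif (AGATAAG). The P2rx4 window held an IRF motif (GAAANNGAA) and an NFAT motif (TGGAAAA), both on the minus strand and overlapping each other, and 97 of its bases were a P2rx4 exon. The Izumo1r and P2rx7 windows held none of the 14 motifs. Among windows of the same length at the 38441 peaks on chromosomes, 3.28% held the GATA letters, 9.42% the IRF letters and 5.97% the NFAT letters. Among the 47 member windows these shares were 8.51%, 10.6% and 4.26%. AP-1 (TGANTCA), a motif that BATF also binds with partners, was in 10.6% of member windows and 11.8% of all windows. The other motifs had these shares of member and of all windows: CRE (TGACGTCA) 0.0% and 1.41%, ETS (CCGGAAG) 4.26% and 7.44%, RUNX (TGTGGTT) 10.6% and 11.2%, and NR4A (AAAGGTCA) 2.13% and 1.4%. T-box (AGGTGTGA) had 2.13% and 1.63%, TCF/LEF (CTTTGAA) 10.6% and 6.7%, KLF/SP (GGGCGGGG) 6.38% and 12.4%, and NF-kB (GGGNNTTCC) 2.13% and 6.8%. FOXO/FOXP (TGTTTAC) had 4.26% and 4.02%, and HIF (TACGTG) 4.26% and 4.09%.

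Chromatin at the genes that make and sense adenosine had its highest mean signal in anergic cells, while chromatin at both ATP receptor genes was less open in anergic than in Teff cells. Summed over each gene's peaks, the mean signal had the order anergic, Treg, Teff, naive at Entpd1, Nt5e, Izumo1r and Adora2a. Not every step of that order passed in limma. Anergic over Treg was 0.12 ± 0.11 at Entpd1 (adjusted p = 0.454). Treg over Teff was 0.01 ± 0.08 at Adora2a (adjusted p = 0.962) and 0.21 ± 0.10 at Nt5e (adjusted p = 0.113). P2rx7 was highest in Teff cells, P2rx4 was highest in naive and lowest in anergic cells, and Ada was lowest in anergic cells. In a bulk library, a peak open in more cells and a peak more open in each cell cannot be told apart. All fold changes below are log2 fold changes of deposited signal plus 1 with their standard errors, and adjusted p-values are from limma over 38493 peaks or 14242 genes.

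**Figure D1:**
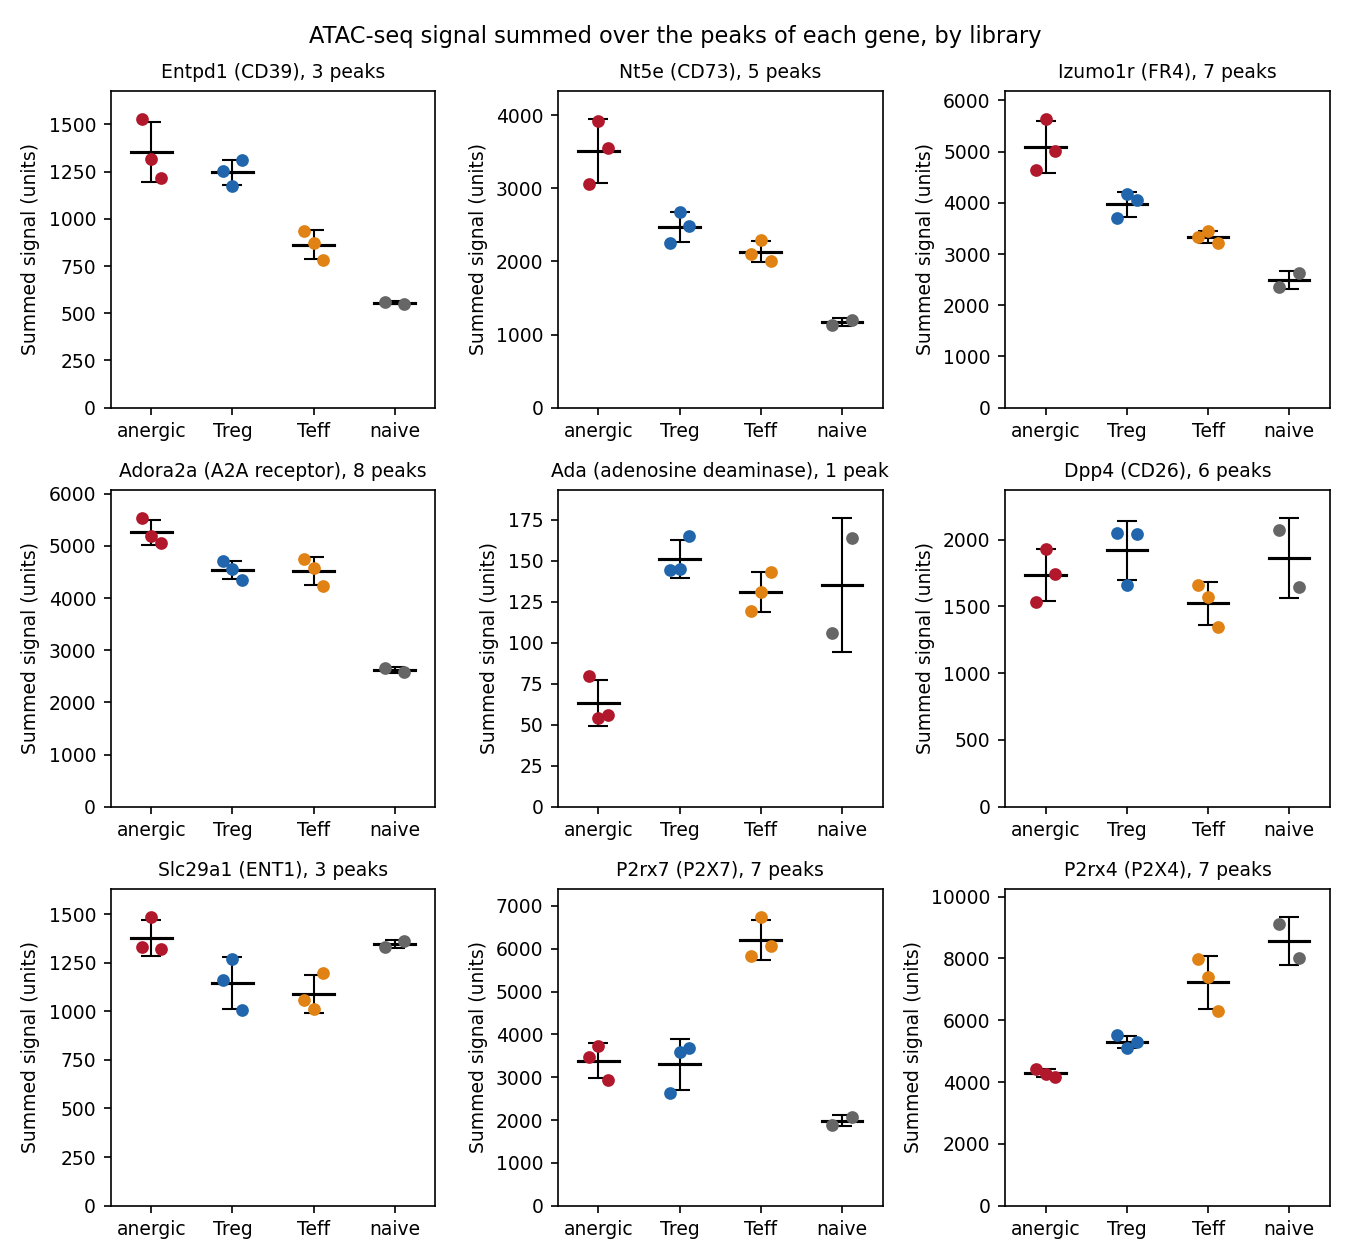
Deposited signal summed over all peaks of each gene (vertical axis, units, from 0), 1 point per library, for anergic, Treg, Teff and naive cells from left to right; bars are the mean and whiskers the SD (n = 3, or 2 for naive). The 3 anergic libraries sit above all others at Nt5e (3052 to 3918) and Izumo1r (4632 to 5631), and the 3 Teff libraries sit above all others at P2rx7 (5827 to 6732).

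Over all 47 peaks the comparisons that leave out naive cells ran in both directions. Between anergic and Teff cells, 14 member peaks were higher and 15 lower in anergic cells, against 15.9% and 16.8% of all tested peaks. Of the 14 higher, 4 were Nt5e and 4 Izumo1r peaks, at the genes of the gated proteins. Their part of this count is not independent of the sort. Between anergic and Treg cells, 7 were higher and 7 lower, against 19.4% and 14.8% of all peaks. The 7 higher became 4 without anergic replicate 2 and 4 without Treg replicate 1. Scaled by total reads in peaks, that split became 4 higher and 10 lower, and the share of higher calls among all calls was 40.1%, against 56.8% with the deposited scaling. Between Treg and Teff cells, 11 were higher and 12 lower in Treg cells, against 14.4% and 18.2% of all peaks, or 13 and 11 under total scaling, where the share of higher calls was 57.3% against 44.2%.

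Against naive cells more member peaks were higher than lower. Anergic cells had 22 higher and 10 lower peaks, against 25.3% and 25.1% of all peaks. Treg cells had 21 higher and 6 lower, against 22.3% and 23% of all peaks, and 25 higher and 3 lower under total scaling, where the share of higher calls was 65.2% against 49.1%. Without naive replicate 1 the 6 lower became 3. Teff cells had 20 higher and 6 lower, against 22.7% and 17.4% of all peaks. Those 6 lower became 1 without naive replicate 1, 2 without naive replicate 2 or Teff replicate 2, and 3 without Teff replicate 3 or under total scaling. The median change of the 47 peaks was 0.42 in anergic, 0.40 in Treg and 0.33 in Teff cells over naive cells, against -0.04, -0.04 and -0.03 over all peaks. The 3 comparisons share the naive libraries.

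**Figure D2:**
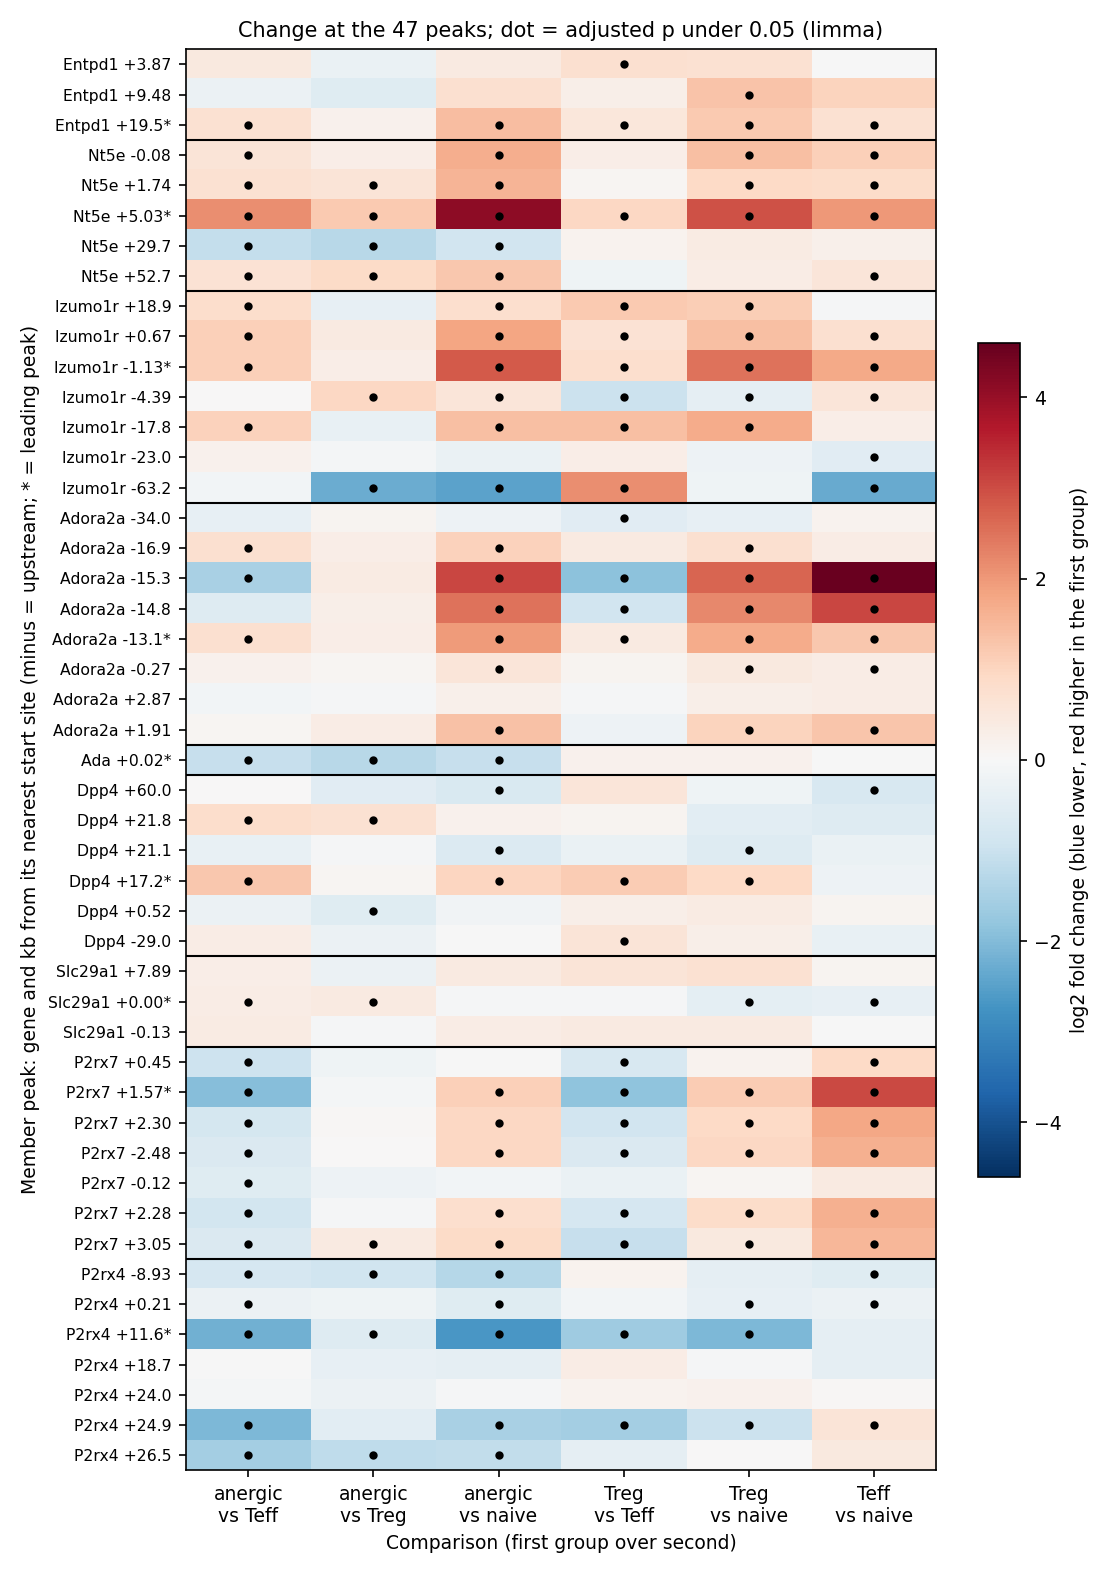
Log2 fold change (colour) of each of the 47 member peaks (rows, by gene, in chromosome order, with the distance from the nearest start site in kb) in the 6 comparisons (columns, first group over second); a dot marks an adjusted p under 0.05. All 7 P2rx7 peaks are lower in anergic than in Teff cells, and 4 of 5 Nt5e peaks are higher.

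Peaks of 1 gene resembled each other to different degrees. Over the 11 libraries the median r between pairs of peaks was 0.84 at P2rx7, 0.72 at Nt5e, 0.64 at Adora2a, 0.48 at P2rx4, 0.47 at Entpd1, 0.17 at Dpp4, 0.02 at Izumo1r and -0.11 at Slc29a1. Between peaks of different member genes it was 0.03. These peaks share libraries and depth, so the values describe the libraries. Between anergic and Teff cells, 7 of 10 member peaks near a start site and 22 of 37 others were called, against 16% and 41.1% of all such peaks. Those 7 included the promoter peaks of Nt5e and Izumo1r, whose proteins were gated. Of the 7, the calls at Slc29a1, P2rx4 and the P2rx7 peak nearest to a start site did not hold in every other setting. In the other comparisons the counts were not always above those shares. Anergic over Treg had 3 and 11, against 27.5% and 37.4%, and Treg over Teff 2 and 21, against 23.4% and 37.2%. Over naive cells, anergic had 5 and 27, against 31.9% and 59.8%. Treg over naive had 5 and 22, against 39.3% and 48.2%, and Teff over naive 6 and 20, against 25% and 47.6%. Of all 14242 genes, 25.5% had a called sum between anergic and Teff cells. Of the 9 genes, 5 were higher, Nt5e and Izumo1r among them, and 3 lower. The matching values were 37.2% with 3 higher and 2 lower for anergic over Treg, 42.2% with 5 and 2 for anergic over naive, and 33.9% with 3 and 2 for Treg over Teff. They were 48.3% with 5 and 1 for Treg over naive, and 34.2% with 5 and 0 for Teff over naive.

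Entpd1 encodes CD39, the enzyme that starts the breakdown of extracellular ATP. Its 3 peaks all lay in intron 1, and none lay within 1 kb of a start site. The leading peak (chr19:40678600-40679994) lay 19.5 kb downstream of the nearest of the gene's start sites. It had a signal of 1338, 1187 and 1055 in anergic, 1034, 996 and 1089 in Treg, 760, 780 and 645 in Teff and 446 and 442 in naive libraries. Every anergic and Treg library was above every Teff library, and every Teff library above both naive ones. The change was 0.71 ± 0.13 for anergic over Teff (adjusted p = 0.000122) and 0.52 ± 0.13 for Treg over Teff (adjusted p = 0.00306). It was 1.42 ± 0.14 for anergic over naive, 1.22 ± 0.14 for Treg over naive and 0.71 ± 0.14 for Teff over naive cells. Anergic and Treg libraries overlapped at this peak (0.19 ± 0.13, adjusted p = 0.247). The other peaks lay 3.87 kb and 9.48 kb from a different start site, farther upstream. They were weaker, with group means of 92.8 to 157 and 18.7 to 49.3.

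Nt5e encodes CD73, which forms adenosine. Its leading peak lay in intron 1, 5.03 kb from the start site (chr9:88332304-88332968), where the sequence above was read. It had a signal of 534, 638 and 604 in anergic, 188, 353 and 257 in Treg, 120, 118 and 165 in Teff and 31.7 and 34.1 in naive libraries. No 2 groups overlapped, and the 4 groups formed steps from anergic down to naive. The change was 2.15 ± 0.22 for anergic over Teff (adjusted p = 1.65e-07), 1.19 ± 0.22 for anergic over Treg (adjusted p = 0.000271) and 4.13 ± 0.25 for anergic over naive (adjusted p = 6.32e-12). Treg over Teff was 0.95 ± 0.22 (adjusted p = 0.00209), and Treg and Teff over naive were 2.93 ± 0.25 and 1.98 ± 0.25.

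The Nt5e promoter peak (chr9:88326955-88328110, centre 77 bases from the start site) changed less. Its signal was 1273, 1537 and 1418 in anergic, 1014, 1249 and 1199 in Treg, 860, 967 and 967 in Teff and 447 and 429 in naive libraries. Anergic libraries were above all others and naive libraries below all others. The change was 0.59 ± 0.12 for anergic over Teff (adjusted p = 0.000552) and 1.68 ± 0.14 for anergic over naive (adjusted p = 8.77e-10). Anergic over Treg was 0.29 ± 0.12 (adjusted p = 0.0705) and did not pass.

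A further Nt5e peak went the other way. In intron 3, 29.7 kb from the start site (chr9:88357203-88357482), the signal was 58, 116 and 91.3 in anergic, 198, 219 and 201 in Treg, 174, 255 and 143 in Teff and 136 and 185 in naive libraries. Every anergic library was below every other library. The change was -1.11 ± 0.26 for anergic over Teff (adjusted p = 0.00167), -1.26 ± 0.26 over Treg (adjusted p = 0.000662) and -0.89 ± 0.29 over naive (adjusted p = 0.0129). The last of these did not pass without anergic replicate 1 (-0.61, adjusted p = 0.0713) or without naive replicate 2 (-0.67, adjusted p = 0.149). The peak at 52.7 kb lies in intron 26 of Snx14, a sorting nexin gene, and was higher in anergic than in Teff cells (0.68 ± 0.18, adjusted p = 0.00513). Which gene it serves was not tested.

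Izumo1r encodes FR4. Its leading peak lay 1.13 kb upstream of the start site (chr9:14904479-14905316) and had a signal of 502, 522 and 442 in anergic, 418, 400 and 360 in Treg, 172, 256 and 270 in Teff and 65 and 71.2 in naive libraries. The groups did not overlap. The change was 1.09 ± 0.18 for anergic over Teff (adjusted p = 6.96e-05), 0.32 ± 0.18 for anergic over Treg (adjusted p = 0.192) and 2.82 ± 0.20 for anergic over naive (adjusted p = 1.46e-10). Treg over Teff was 0.78 ± 0.18 (adjusted p = 0.00244) and Treg over naive 2.51 ± 0.20 (adjusted p = 2.09e-09). Its promoter peak in intron 1 (chr9:14901835-14904367) had 1741, 2556 and 2514 in anergic, 1411, 1958 and 1660 in Treg, 831, 1089 and 1295 in Teff and 544 and 755 in naive libraries. It was higher in Treg than in Teff cells (0.66 ± 0.17, adjusted p = 0.00533), and anergic over Treg was 0.43 ± 0.17 (adjusted p = 0.0574).

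The 7 Izumo1r peaks did not move together. The peak 4.39 kb upstream (chr9:14907742-14908566) had 1424, 1510 and 1204 in anergic, 714, 711 and 671 in Treg, 1552, 1473 and 1137 in Teff and 963 and 923 in naive libraries. Treg libraries were the lowest, below the naive ones, and anergic and Teff libraries overlapped. Anergic over Treg was 0.97 ± 0.13 (adjusted p = 6.19e-06), and Treg over Teff was -0.98 ± 0.13 (adjusted p = 5.07e-06). Treg over naive was -0.43 ± 0.14 (adjusted p = 0.018). It did not pass under total scaling (-0.26, adjusted p = 0.148) or without naive replicate 1 (-0.4) or 2 (-0.46). A 99-base peak 63.2 kb upstream (chr9:14966952-14967050) grouped the cells differently. It had 13.3, 9.49 and 16.1 in anergic, 68.7, 59.6 and 67.1 in Treg, 28.4, 8.26 and 11.7 in Teff and 77.2 and 72.8 in naive libraries, so it was low in anergic and Teff cells. Treg over Teff was 2.13 ± 0.47 (adjusted p = 0.00147) and anergic over Treg -2.27 ± 0.47 (adjusted p = 0.00086). With as few as 7 reads in a library, it is the thinnest of the member peaks.

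**Figure D3:**
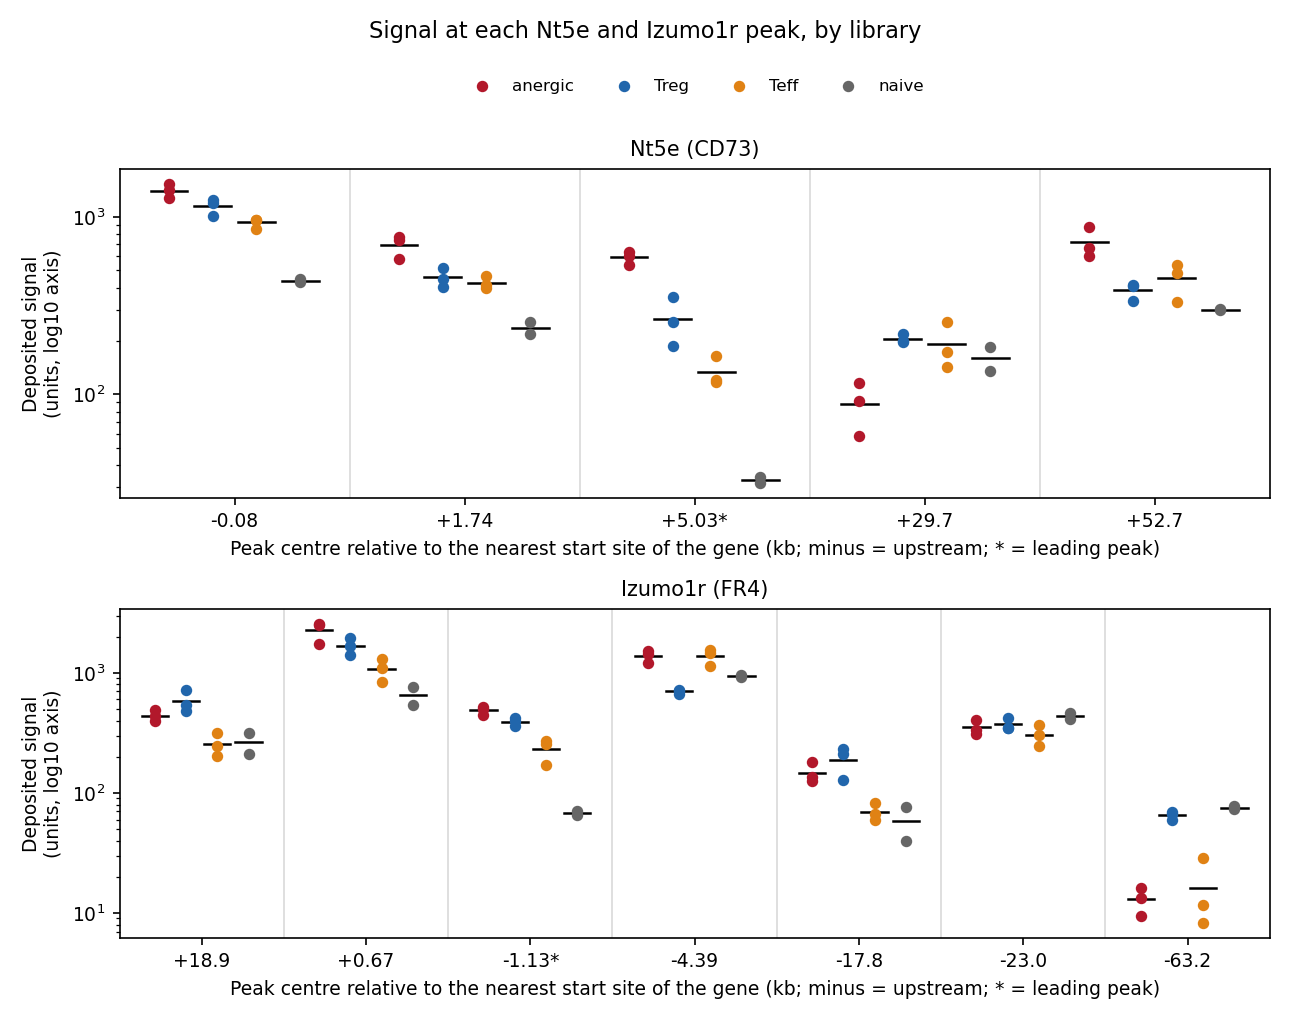
Deposited signal (vertical log10 axis, units) at each Nt5e and Izumo1r peak in chromosome order, labelled by distance from the nearest start site in kb; points are libraries, with anergic, Treg, Teff and naive cells from left to right, and bars are group means. The Nt5e peak at 29.7 kb is lowest in anergic cells (mean 88.6), and the Izumo1r peak 4.39 kb upstream is lowest in Treg cells (mean 699).

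Summed over their peaks, Nt5e averaged 3507 ± 434 in anergic, 2468 ± 210 in Treg, 2134 ± 142 in Teff and 1169 ± 51.6 in naive cells (SD, n = 3, or 2 for naive). Its neighbours in this order differed except Treg and Teff (0.21 ± 0.10, adjusted p = 0.113). Izumo1r averaged 5090 ± 505 in anergic, 3975 ± 243 in Treg, 3336 ± 118 in Teff and 2493 ± 184 in naive cells, and all neighbours differed. Of these, Treg over Teff (0.25 ± 0.09, adjusted p = 0.0304) did not pass without Teff replicate 1, 2 or 3 or Treg replicate 2 or 3 (0.22 to 0.28, adjusted p up to 0.0946). Teff over naive (0.42 ± 0.10, adjusted p = 0.00166) did not pass without naive replicate 1 (0.35, adjusted p = 0.059). Per kb of peak, Nt5e had 997 and Izumo1r 949 units in anergic cells, against 332 and 465 in naive cells.

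Peaks of other genes had nearly the same profile over the 11 libraries as these leading peaks. For Nt5e, 13955 peaks were compared, and the most similar ones were taken, at most 1 for each gene. They lay nearest to Hibch and Rps6kc1 (r = 0.992), Fam43a, Mir7223 and Snhg3 (r = 0.991). These r are the highest among many peaks over 11 libraries, so their size is partly set by the choice. The Hibch and Snhg3 peaks averaged 0.793 in naive cells, close to the worth of 1 read there (0.812 and 0.774). At the Fam43a peak, 0.051 kb from its start site, signal averaged 1196 in anergic, 578 in Treg, 386 in Teff and 153 in naive cells. For Izumo1r they lay nearest to Sgip1 (r = 0.992), Vrk2 and Stx11 (r = 0.991), Bub1b and Olfml2b (r = 0.99). At the Stx11 peak, signal averaged 667 in anergic, 302 in Treg, 72.9 in Teff and 3.54 in naive cells.

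Adora2a encodes the A2A receptor, the main adenosine receptor of T cells. Its leading peak lay 13.1 kb upstream, inside intron 16 of the neighbouring gene Specc1l (chr10:75303267-75304244). The signal was 1444, 1506 and 1560 in anergic, 1217, 1203 and 1274 in Treg, 909, 928 and 898 in Teff and 409 and 356 in naive libraries. The groups formed steps without overlap, with changes of 0.72 ± 0.11 for anergic over Teff (adjusted p = 2.77e-05), 0.43 ± 0.11 for Treg over Teff (adjusted p = 0.0048) and 1.97 ± 0.12 for anergic over naive (adjusted p = 1.53e-11). Anergic over Treg was 0.29 ± 0.11 (adjusted p = 0.0505). The promoter peak (chr10:75316515-75318155) had 1462, 1336 and 1411 in anergic, 1366, 1350 and 1226 in Treg, 1184, 1267 and 1180 in Teff and 904 and 1027 in naive libraries. Over naive cells it passed for anergic (0.54 ± 0.12, adjusted p = 0.00069), Treg (0.45 ± 0.12, adjusted p = 0.0047) and Teff cells (0.33 ± 0.12, adjusted p = 0.0349). The Treg call was lost in 1 and the Teff call in 4 of 18 other settings. Anergic over Teff was 0.21 ± 0.11 (adjusted p = 0.144).

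Close to the leading peak, the neighbouring peaks 15.3 kb and 14.8 kb upstream in the same Specc1l intron were highest in Teff cells. At 15.3 kb (chr10:75301477-75301731) the signal was 101, 60.6 and 72.5 in anergic, 75.5, 70.2 and 38 in Treg, 264, 202 and 192 in Teff and 7.31 and 9.29 in naive libraries. Teff over naive was 4.56 ± 0.36 (adjusted p = 1.65e-09), in the main fit the largest change of any member peak in any of the 6 comparisons. Over the alternative settings it fell as low as 3.64. The lowest value for anergic over naive at the Nt5e leading peak was 3.81, so the rank depends on the setting. Anergic over Teff was -1.50 ± 0.33 (adjusted p = 0.000977) and Treg over Teff -1.87 ± 0.33 (adjusted p = 0.000132). At 14.8 kb (chr10:75301980-75302258), Teff over naive was 3.09 ± 0.27 (adjusted p = 6.3e-09) and anergic over naive 2.49 ± 0.27 (adjusted p = 6.95e-08). There anergic over Teff was -0.59 ± 0.24 and did not pass (adjusted p = 0.0624), though it did in 5 of 18 other settings. Treg over Teff passed (-0.87 ± 0.24, adjusted p = 0.00764), but not without Treg replicate 3 (-0.63, adjusted p = 0.0552). The sum over the 8 Adora2a peaks averaged 5259 ± 242 in anergic, 4537 ± 175 in Treg, 4520 ± 266 in Teff and 2618 ± 58.9 in naive cells. Its calls for anergic over Teff (0.22 ± 0.08, adjusted p = 0.0483) and anergic over Treg (0.21 ± 0.08, adjusted p = 0.0416) were lost in 11 and 14 of 17 other settings, and the changes over naive cells were not.

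Ada, Dpp4 and Slc29a1 concern the removal of adenosine. Ada encodes adenosine deaminase, which turns adenosine into inosine, and had a single peak, in its 5′ UTR (chr2:163750127-163750311). The signal was 79.6, 54.3 and 55.7 in anergic, 144, 145 and 165 in Treg, 119, 131 and 143 in Teff and 106 and 164 in naive libraries. All 3 anergic libraries were below all others, and the naive libraries overlapped both Treg and Teff libraries. The 3 Treg libraries were above the 3 Teff libraries by a narrow margin (0.20 ± 0.24, adjusted p = 0.555). The change was -1.06 ± 0.24 for anergic over Teff (adjusted p = 0.00153), -1.26 ± 0.24 over Treg (adjusted p = 0.000385) and -1.07 ± 0.27 over naive (adjusted p = 0.00205). The last did not pass without naive replicate 2 (-0.76, adjusted p = 0.077). The peak was 185 bases wide.

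Dpp4 encodes CD26, a surface peptidase that binds adenosine deaminase in humans. Its leading peak lay 17.2 kb into the gene, in intron 2 (chr2:62394786-62395221), and had 448, 492 and 480 in anergic, 575, 409 and 368 in Treg, 247, 197 and 158 in Teff and 262 and 212 in naive libraries. Anergic and Treg libraries overlapped and lay above all others. The change was 1.25 ± 0.19 for anergic over Teff (adjusted p = 2.08e-05) and 1.16 ± 0.19 for Treg over Teff (adjusted p = 6.79e-05). Over naive cells it was 1.0 ± 0.21 for anergic and 0.90 ± 0.21 for Treg cells, while Teff over naive was -0.25 ± 0.21 (adjusted p = 0.361). The promoter peak (chr2:62411368-62412061) had 285, 304 and 301 in anergic, 494, 377 and 451 in Treg, 375, 372 and 332 in Teff and 365 and 305 in naive libraries. There anergic over Treg was -0.56 ± 0.15 (adjusted p = 0.00762). The sum over 6 peaks averaged 1735 ± 197 in anergic, 1920 ± 223 in Treg, 1525 ± 161 in Teff and 1860 ± 300 in naive cells. Only Treg over Teff passed (0.33 ± 0.12, adjusted p = 0.0302), and not without Teff replicate 2 or 3 or Treg replicate 1 or 3 (0.24 to 0.35, adjusted p up to 0.139).

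**Figure D4:**
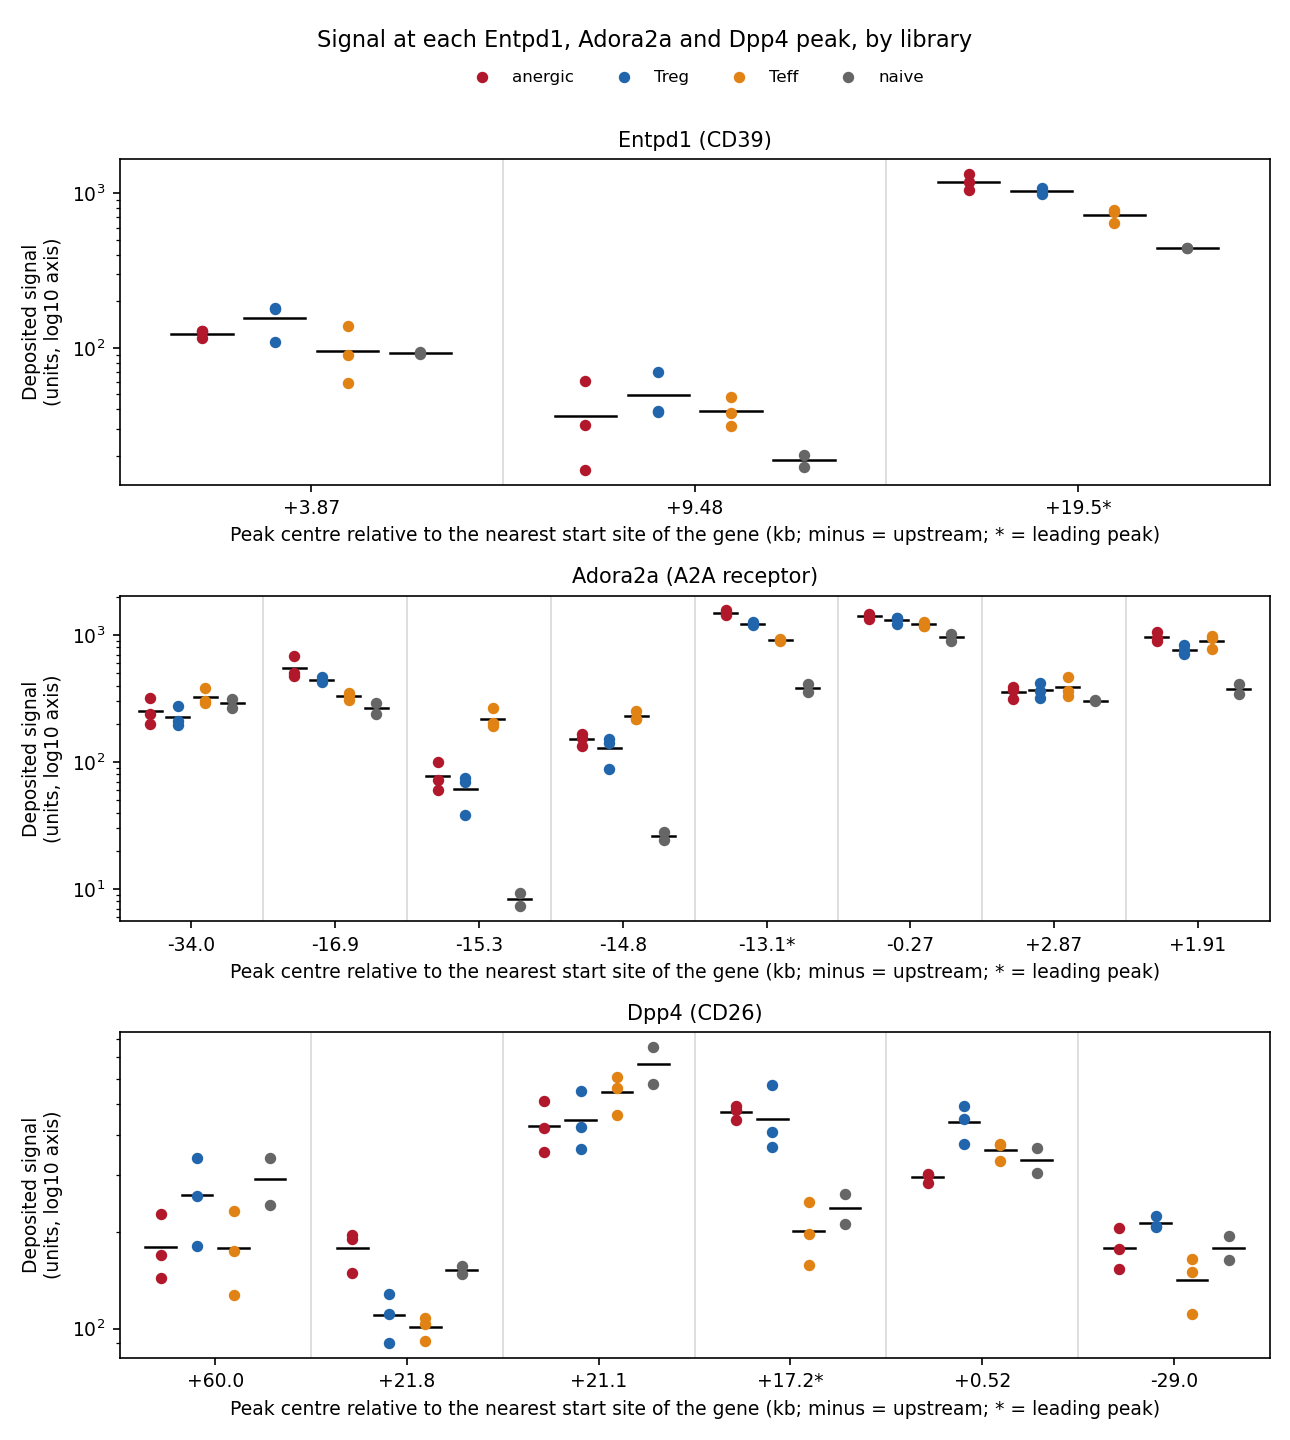
Deposited signal (vertical log10 axis, units) at each Entpd1, Adora2a and Dpp4 peak in chromosome order, labelled by distance from the nearest start site in kb; points are libraries, with anergic, Treg, Teff and naive cells from left to right, and bars are group means. The Adora2a peak 15.3 kb upstream is highest in Teff (mean 219) and lowest in naive cells (mean 8.3).

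Slc29a1 encodes ENT1, which carries adenosine across the membrane. Its leading peak was its promoter (chr17:45594870-45596197), with 1035, 1229 and 1040 in anergic, 809, 954 and 746 in Treg, 849, 842 and 905 in Teff and 1090 and 1172 in naive libraries. Anergic and naive libraries overlapped and lay above the Treg and Teff libraries. The changes were small: 0.34 ± 0.12 for anergic over Teff (adjusted p = 0.0354), 0.40 ± 0.12 for anergic over Treg (adjusted p = 0.0153), -0.44 ± 0.14 for Treg over naive (adjusted p = 0.0119) and -0.39 ± 0.14 for Teff over naive (adjusted p = 0.0293). All 4 failed under total scaling (adjusted p = 0.0698, 0.12, 0.138 and 0.0876). Anergic over Teff also failed without anergic replicate 2 (0.26, adjusted p = 0.142) or Teff replicate 1 or 2 (0.33 and 0.32). Anergic over Treg failed without anergic replicate 2 (0.32), Treg replicate 1 (0.38) or Treg replicate 3 (0.32). Over naive cells, Treg failed without naive replicate 2 (-0.39) or Treg replicate 3 (-0.36), and Teff failed without naive replicate 1 (-0.44) or 2 (-0.33) or Teff replicate 1 or 2 (-0.37 each). Its other peaks passed in none of the 6 comparisons.

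P2rx7 encodes P2X7, an ATP-gated channel whose strong activation can kill mouse T cells. All 7 peaks were lower in anergic than in Teff cells and 6 were lower in Treg than in Teff cells. The anergic over Teff calls at 2 of the 7 were lost in some other settings. The leading peak lay in intron 1, 1.57 kb from the nearest start site (chr5:122645164-122645823), with 245, 382 and 281 in anergic, 267, 407 and 290 in Treg, 1211, 1178 and 1072 in Teff and 136 and 145 in naive libraries. Teff libraries stood far above the rest, anergic and Treg libraries overlapped, and naive libraries were lowest. The change was -1.95 ± 0.18 for anergic over Teff (adjusted p = 3.82e-08), -1.86 ± 0.18 for Treg over Teff (adjusted p = 8.89e-08) and 3.03 ± 0.20 for Teff over naive (adjusted p = 1.04e-10). Anergic and Treg cells were also above naive cells there, by 1.08 ± 0.20 (adjusted p = 0.000108) and 1.16 ± 0.20 (adjusted p = 7.1e-05).

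The other P2rx7 peaks followed with smaller changes, from -0.54 to -0.94 for anergic over Teff. At the peak 2.48 kb from a start site (chr5:122647412-122648394), the signal was 1592, 1293 and 891 in anergic, 903, 1462 and 1400 in Treg, 1508, 2241 and 2150 in Teff and 567 and 693 in naive libraries, so anergic and Teff libraries overlapped. Anergic over Teff was -0.66 ± 0.19 there (adjusted p = 0.0111), and it did not pass with DESeq2 (-0.65, adjusted p = 0.05 after rounding), without Teff replicate 2 (-0.56, adjusted p = 0.069) or without anergic replicate 3 (-0.43, adjusted p = 0.106). Treg over Teff (-0.66 ± 0.19, adjusted p = 0.0126) did not pass with DESeq2 (-0.64, adjusted p = 0.0541), without Teff replicate 2 (-0.55, adjusted p = 0.0757) or without Treg replicate 1 (-0.44, adjusted p = 0.107). The peak nearest to a start site (chr5:122650079-122650452) had 128, 157 and 122 in anergic, 146, 153 and 180 in Treg, 216, 201 and 175 in Teff and 177 and 125 in naive libraries. Anergic over Teff was -0.54 ± 0.21 there (adjusted p = 0.0485), a call lost in 11 of 18 other settings. Summed over its peaks, P2rx7 averaged 3386 ± 404 in anergic, 3299 ± 590 in Treg, 6207 ± 469 in Teff and 1980 ± 128 in naive cells. Neighbours in that order differed except anergic and Treg (0.05 ± 0.11, adjusted p = 0.77). Zbtb16, which marks innate-like T cells, was also higher in every Teff library than in any other. Signal over its 13 peaks was 859 to 1162 in anergic, 449 to 762 in Treg, 5074 to 7164 in Teff and 394 to 496 in naive libraries. The P2rx7 sums overlapped between anergic and Treg libraries but not between Treg and naive libraries. Zbtb16 was instead higher in every anergic than in every Treg library, and overlapped between Treg and naive libraries. The list it belongs to, for CD8, NK and innate-like T cells, holds 5 genes, of which Cd8a and Ncr1 had no peak. Cd8b1 stood at 115 to 285 in anergic, 613 to 750 in Treg, 179 to 227 in Teff and 1117 to 1150 in naive libraries. Klrb1c stood at 19290 to 24865 in anergic, 17608 to 22978 in Treg, 19306 to 21161 in Teff and 21468 to 21982 in naive libraries. The list summed to 20514 to 25839 in anergic, 18807 to 24191 in Treg, 24607 to 28505 in Teff and 23012 to 23595 in naive libraries. The part of such cells in the P2rx7 difference was not tested.

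P2rx4 encodes P2X4, another ATP-gated channel. It neighbours P2rx7 on chromosome 5 and had a different order of groups. Its leading peak, 11.6 kb into the gene in intron 4 (chr5:122718565-122719636), had 436, 429 and 247 in anergic, 598, 504 and 520 in Treg, 2111, 1764 and 1277 in Teff and 2601 and 1981 in naive libraries. Anergic libraries were below Treg libraries and both were far below Teff and naive libraries, which overlapped. The change was -2.22 ± 0.19 for anergic over Teff (adjusted p = 1.7e-08), -2.66 ± 0.22 for anergic over naive (adjusted p = 9.21e-10), -1.64 ± 0.19 for Treg over Teff (adjusted p = 1.24e-06) and -2.07 ± 0.22 for Treg over naive (adjusted p = 8.34e-08). Anergic over Treg (-0.59 ± 0.19, adjusted p = 0.0229) did not pass with DESeq2 (-0.56, adjusted p = 0.107), without anergic replicate 3 (-0.32, adjusted p = 0.191) or without Treg replicate 1 (-0.51, adjusted p = 0.0885). Teff over naive was -0.43 ± 0.22 (adjusted p = 0.118).

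The P2rx4 promoter peak was the strongest of all member peaks and changed little. At chr5:122707033-122708482 it had 3333, 3212 and 3358 in anergic, 4025, 3455 and 3736 in Treg, 4262, 4117 and 3702 in Teff and 5123 and 4678 in naive libraries. Anergic over naive was -0.57 ± 0.10 (adjusted p = 7.03e-05). Anergic over Teff was -0.28 ± 0.09 (adjusted p = 0.0195), and it did not pass without Teff replicate 1 (-0.24) or 2 (-0.27) or anergic replicate 2 (-0.26). Beyond the gene, 3 peaks 24.0 to 26.5 kb from the start site lay in the 3′ UTR of Camkk2, a kinase gene. Of these, the peak at 24.9 kb (chr5:122731974-122732863) had 204, 191 and 131 in anergic, 189, 328 and 225 in Treg, 786, 796 and 603 in Teff and 520 and 444 in naive libraries. Anergic over Teff was -2.06 ± 0.20 (adjusted p = 1e-07). Which gene this peak serves was not tested.

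**Figure D5:**
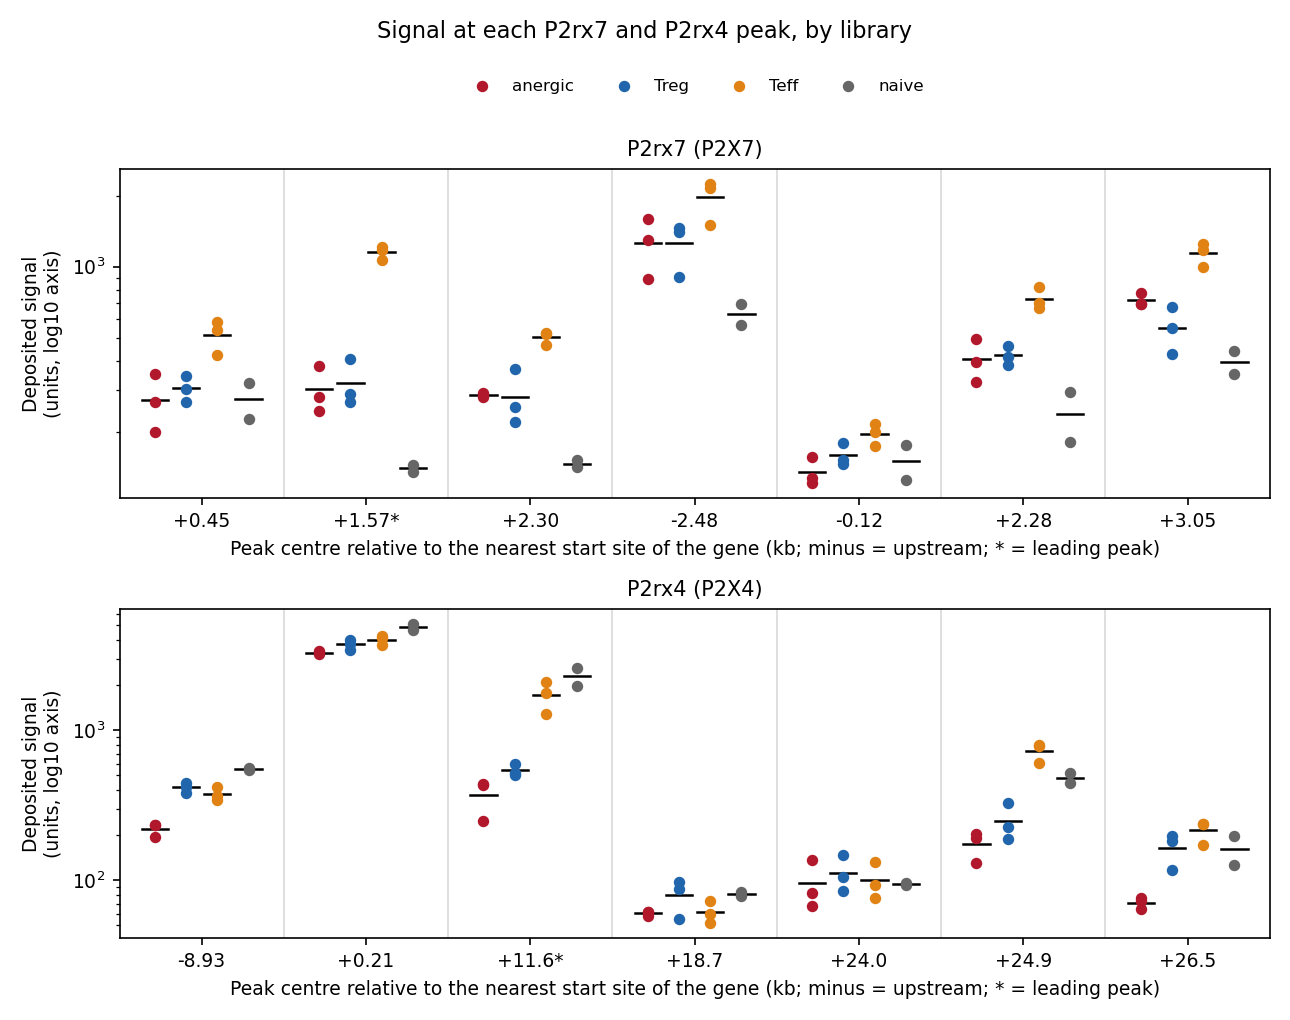
Deposited signal (vertical log10 axis, units) at each P2rx7 and P2rx4 peak in chromosome order, labelled by distance from the nearest start site in kb; points are libraries, with anergic, Treg, Teff and naive cells from left to right, and bars are group means. Teff cells have the highest mean at every P2rx7 peak, and at the P2rx4 peak at 11.6 kb anergic (mean 371) and Treg cells (mean 541) are below Teff (mean 1717) and naive cells (mean 2291).

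Summed over 7 peaks, P2rx4 averaged 4294 ± 134 in anergic, 5300 ± 206 in Treg, 7228 ± 849 in Teff and 8562 ± 769 in naive cells. Anergic over Treg was -0.30 ± 0.09 (adjusted p = 0.00901), Treg over Teff -0.44 ± 0.09 (adjusted p = 0.00038), and Teff over naive -0.25 ± 0.10 (adjusted p = 0.0531). Myeloid markers, with 3 of 5 genes (Csf1r, Lyz2 and Cd14) without a peak, summed to 585 to 693 in anergic, 795 to 977 in Treg, 761 to 835 in Teff and 1007 to 1199 in naive libraries. Every anergic library was below every naive one on this list, and the same held for P2rx4 and for the T cell genes given above. On the myeloid list Treg and Teff libraries overlapped, while every Treg library was below every Teff library at the P2rx4 sum. Of the 4 erythroid markers only Klf1 had a peak, which stood at 1754 to 2286 in anergic, 1550 to 1870 in Treg, 2197 to 2315 in Teff and 2688 to 2789 in naive libraries, again lower in every anergic than in every naive library. At Klf1 the lowest library was a Treg one, and at the P2rx4 sum an anergic one. The part of myeloid or erythroid cells in the P2rx4 difference was not tested.

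Other genes of these pathways were taken from a list of 58, of which 46 had a peak, 166 tested peaks in all. Anergic over Teff had 22 higher and 42 lower, against 15.9% and 16.8% of all tested peaks. Anergic over Treg had 29 and 23, against 19.4% and 14.8%, and anergic over naive had 44 and 44, against 25.3% and 25.1%. Treg over Teff had 15 and 40, against 14.4% and 18.2%, Treg over naive 31 and 33, against 22.3% and 23%, and Teff over naive 41 and 17, against 22.7% and 17.4%. Several of these counts lie near the share over all peaks. Medians were -0.13, -0.03, -0.07, -0.10, -0.04 and 0.02 in that order, and over all peaks 0, 0.04, -0.04, -0.02, -0.04 and -0.03. The cyclic AMP genes, below the A2A receptor, made up 73 of these peaks, with 8 higher and 22 lower in anergic than in Teff cells. They hold 5 phosphodiesterase genes, whose enzymes break down cyclic AMP, and these differed in direction. In anergic over Teff cells, Pde4a was lower at 8 of 10 peaks and higher at 0, with -2.30 ± 0.25 at its most certain one (adjusted p = 3.27e-07). Pde7a was lower at 4 of 6 and higher at 0 (-2.39 ± 0.41, adjusted p = 9.3e-05), and Pde3b was lower at 3 of 3 (-1.15 ± 0.14, adjusted p = 1.06e-06). Pde4b, with the most peaks of the 5, was higher at 2 and lower at 3 of 15, and its most certain peak was higher (1.77 ± 0.26, adjusted p = 1.16e-05). The single Pde4d peak, 109 kb from a start site, was higher, with 191 to 284 in anergic, 38.3 to 70.9 in Treg, 2.08 to 11.6 in Teff and 3.87 to 4.06 in naive libraries. It rose by 5.34 ± 0.52 in anergic over Teff cells (adjusted p = 7.72e-08).

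Among genes of ATP release and surface nucleotide enzymes, 6 of 36 peaks were higher and 9 lower in anergic than in Teff cells, against 15.9% and 16.8% of all peaks, so the higher count is near that share. Panx1, a channel that releases ATP and the next gene on chromosome 9 beyond the farthest Izumo1r peak, had 2 higher and 6 lower of 14 peaks. Bst1, an enzyme that consumes NAD, fell by 4.07 ± 0.26 on the log2 scale at its most certain peak (adjusted p = 3.72e-10). Art2b, an enzyme that in mouse T cells uses NAD to gate P2X7, had 2 of 6 peaks lower, with -1.52 ± 0.31 at the most certain (adjusted p = 0.00049). Of 20 peaks of other nucleotide receptors, 1 was higher and 7 lower in anergic than in Teff cells. The single P2rx3 peak, for a further P2X channel, had 37.6 to 71.3 in anergic, 15.2 to 55.3 in Treg, 250 to 314 in Teff and 0.774 to 8.12 in naive libraries (anergic over Teff -2.53 ± 0.52, adjusted p = 0.000537).

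Genes of nucleoside transport and salvage had 28 peaks. In anergic cells 6 of them were higher and 3 lower than in Teff cells, against 15.9% and 16.8% of all peaks. Compared with Treg cells 7 were higher and 1 lower, against 19.4% and 14.8% of all peaks. With 28 peaks, the higher counts are near those shares. Both peaks of Pnp2, a purine nucleoside phosphorylase gene that acts after adenosine deaminase, were higher in anergic than in Teff, Treg and naive cells. An Adk peak 36.9 kb from a start site, at the gene of adenosine kinase, rose by 1.44 ± 0.15 over Teff (adjusted p = 2.28e-07) and by 1.73 ± 0.15 over Treg cells (adjusted p = 3.74e-08). Slc29a3, a nucleoside transporter of the same family as Slc29a1, had 1 of 5 peaks higher in anergic than in Teff cells (2.17 ± 0.36, adjusted p = 5.71e-05). Adora1 and Adora2b had no peak nearest to them, and 1 of 5 Adora3 peaks was lower in anergic than in Teff cells. Folr1 and Folr2, the other folate receptor genes on the list, had no peak either.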

How the data were processed

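ATAC-seq was measured in 11 libraries of sorted mouse CD4 T cells. Per the series' design text, the authors trimmed reads with Trimmomatic 0.38.1, aligned them to mm10 with Bowtie2 2.3.3.1, sorted them with SAMtools 1.13, called peaks per sample with Genrich 0.5, which removed PCR duplicates and adjusted for the transposase cut, and merged them with DiffBind 2.10.0. The deposited signal was whole reads times a library factor, whose method is not given in the sources used here: 100% of values were whole reads within 0.01 after division by the smallest value of the column, taken as 1 read. RNA-seq of the series was not analysed here.

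Starts count from 0 in the deposited table and were raised by 1. Each of 38441 peaks on chromosomes was given to the nearest of 45756 RefSeq transcript starts (GRCm38.p6), computed here, and the other 68 were left out of gene counts. limma 3.58.1 in R 4.3.3 (trend) was run on log2 of signal plus 1, all libraries and group only, over 38493 peaks kept by filterByExpr, or over sums for 14242 genes, with Benjamini-Hochberg adjustment and a threshold of 0.05. A log2 scale with a pseudocount understates the change of weak peaks. Sequences were read from the genome with pysam. edgeR 4.0.16 and DESeq2 1.42.0 on the recovered reads were alternatives, calling 12830 and 13194 peaks between anergic and Teff cells against 12612.

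Replicate numbers were not used as pairs in the main fit. Whether a number marks a shared sort or day is not given in the sources used here. Nothing in the labels ties a replicate to an animal of its own. The p-values therefore cover library-to-library spread, which may be technical. In reads simulated for anergic against Teff cells over 38493 peaks, 29.6% of 1.5-fold, 65% of 2-fold and 95.7% of 4-fold changes were recovered. Every other comparison recovered less at 1.5-fold and 2-fold, down to 12.8% at 1.5-fold (Teff over naive) and 36.9% at 2-fold (Treg over naive). At 4-fold the others ran from 88.4% (Treg over naive) to 100% (anergic over naive). In anergic against Teff cells, 71, 60 and 69 peaks were changed, against 12612 called in the data. The same adjusted threshold therefore meant a different p cut-off, and these shares need not hold for the data. For every gene the text gives its leading peak and, except for Entpd1, which had none, its promoter peak or the peak nearest to a start site; the leading peak had the smallest moderated F-test p over the 4 groups. Similar peaks were the 5 genes with the highest r, at least 1000000 bases away and with group means spanning at least 1 on the log2 scale. The members, gene lists and rules were chosen with earlier results of these data known. Some marker lists used in the label check are not reported here.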

Additional observations from a re-analysis of the deposited data

How the results depend on the processing

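No called value changed direction under any setting tried. Of 42 calls at leading peaks, 36 held in all 18 alternatives. Scaling by total reads in peaks moved the median of all peaks to -0.09 for anergic over Treg (0.04 as deposited) and to 0.12 for Treg over naive (-0.04). It left 4 member peaks higher in anergic over Treg, and 3 lower in Treg over naive and 3 in Teff over naive, with 5721 of all peaks lower in Treg over naive (8867 as deposited). Taking every peak within 50 kb of a member start gave 78 peaks. Of these, 14 were lower in anergic over Treg, 17 higher in Treg over Teff and 10 lower in Teff over naive. Among the 47 member peaks these counts were 7, 11 and 6, so they rose with the number of peaks. Taking only peaks within 100 kb changed no member. Leaving out 1 library gave 4 to 8 member peaks higher in anergic over Treg, lowest without anergic replicate 2 or Treg replicate 1. In Treg over naive it gave 3 to 7 member peaks lower, 5242 to 9227 of all peaks lower and 4524 to 7098 gene sums called. In Teff over naive it gave 1 to 6 member peaks lower, 3645 to 7048 of all peaks lower and 2942 to 5206 gene sums called. The lowest of these were without naive replicate 1, and the cause was not tested. After the mean of each group was subtracted, same-numbered libraries of different groups correlated by -0.11 to 0.16. On these deviations, 7 of 11 libraries resembled their own number best. With replicate number as a block, anergic over Teff kept 14 member peaks higher and 15 lower, anergic over Treg had 10 and 8, and over all single values 3 calls were lost and 8 gained. Without the filter, with a pseudocount of 10 or with only the groups compared in the fit, 1, 0 and 4 single calls were lost. Weak peaks and the 2 naive libraries limit what can be called.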
